A study of Mus musculus with 12 samples.

Results

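Genes of quiescence and of cell cycle control were followed in mouse B cells that carried or lacked LSD1. LSD1 is a demethylase of histones whose gene is Kdm1a. The set joins genes that restrain proliferation or mark resting lymphocytes with D-type cyclins, which drive entry into the cell cycle. The members were chosen by gene symbol: the BTG and TOB family genes Btg1, Btg2 and Tob1, the transcription factor gene Klf2, the inhibitors of cyclin-dependent kinases Cdkn1a and Cdkn1b, the G-type cyclins Ccng1 and Ccng2, and the D-type cyclins Ccnd2 and Ccnd3. Of these 10 genes, 9 were among the 9842 genes of the deposited table. Cdkn1a was not among the listed genes, so no level or change is given for it, and it enters the count of promoter windows only.

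RNA was sequenced from 12 libraries of 2000 sorted cells each, 3 libraries in each of 4 groups. All cells came from female C57BL/6J mice. The groups eMZB_KO and eMZB_WT were marginal zone B cells made ex vivo, with LSD1 knocked out or wild type: splenic transitional B cells were kept in culture for 3 days with BAFF, a cytokine that B cells need to survive, and DL1, a ligand of Notch receptors, and cells positive for B220, CD21 and CD1d were then sorted. The groups TrB_KO and TrB_WT were transitional B cells, with LSD1 knocked out or wild type, that were sorted from the spleen as B220+ CD93+ cells without stimulation. Both sorts left out cells with Thy1.1, F4/80 or CD11b. The labels name neither the allele nor the promoter behind the knockout. Cell type, culture, stimulation and sorting gate changed together between TrB and eMZB, so their parts in a difference cannot be told apart.

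BTG and TOB proteins are small adaptors that bind the CCR4-NOT deadenylase and so shorten the tails of messenger RNAs, and they hold back entry into the cell cycle. KLF2 keeps naive lymphocytes quiescent and controls their homing receptors. In B cells BTG1 and BTG2 are known from early B cell development and as recurrent targets of mutation in lymphoma, while D-type cyclins bind CDK4 and CDK6 to release E2F factors from the RB protein, a step that the p27 protein of Cdkn1b opposes.

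Values are FPKM, fragments or reads per kilobase of gene and per M reads of the library (M, mega), divided by 1 median-of-ratios factor per library and called scaled FPKM here. The libraries held 7.24 to 19.35 M reads, of which 1.96 to 8.78 M fell in the listed genes. TrB_KO replicate 3 stood apart, with 61.6% of its reads in the listed genes and 285 listed genes at 0. Kdm1a had 2.65, 2.53 and 2.66 scaled FPKM in eMZB_KO, against 7.53, 8.63 and 4.68 in eMZB_WT. It had 3.35, 2.56 and 2.99 in TrB_KO, against 8.54, 7.93 and 3.47 in TrB_WT. In each cell type the library labelled wild-type replicate 3 lay below the other wild-type libraries, in TrB close to the knockout ones, and every direction below that involves a wild-type group draws on it. Kdm1a itself was not called, at -1.10 (SE 0.26, adjusted p = 0.148) in eMZB and -0.87 (SE 0.26, adjusted p = 0.249) in TrB, and a value per gene cannot tell its deleted part from the rest. All 9 B cell markers looked for were listed, with summed levels of 1259 to 1489 in eMZB and 1974 to 2540 in TrB. Of the T cell markers 1 of 8 was listed, Cd2, and of the neutrophil markers 0 of 5. Of 8 macrophage and monocyte markers 4 were listed, and their sum was 50.6 to 64.6 in the knockout libraries against 12.4 to 23.0 in the wild-type libraries, nearly all of it Ly6c2, which averaged 49.1 in eMZB_KO, 15.8 in eMZB_WT, 51.7 in TrB_KO and 7.80 in TrB_WT and was the gene of this list that limma called with LSD1 loss. The others were low, and in TrB they were mixed: Adgre1 averaged 1.31 in TrB_KO and 2.27 in TrB_WT, Cd68 1.84 in TrB_KO and 2.62 in TrB_WT, and Itgam 1.49 in TrB_KO and 0.890 in TrB_WT. In eMZB each had the higher mean in the knockout. Adgre1 averaged 0.787 in eMZB_KO and 0.661 in eMZB_WT, Cd68 2.75 and 2.03, and Itgam 1.14 and 0.279. The change of Itgam there was 0.74 (limma, adjusted p = 0.0793), and voom called 2 genes of this list higher. The 5 plasma cell markers summed to 34.4 to 41.8 in eMZB_KO against 49.1 to 58.3 in eMZB_WT, and to 47.7 to 97.6 in TrB_KO against 31.8 to 53.6 in TrB_WT. Of these, 0 were called with LSD1 loss by limma (1 and 2 at an unadjusted p under 0.05 in eMZB and TrB, 1 and 0 by voom). Jchain (-3.27) and Sdc1 (-0.72) were called lower in eMZB_KO against TrB_KO, and Prdm1 (0.66) and Xbp1 (0.60) higher in eMZB_WT against TrB_WT. The part of such cells in the results below was not tested.

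Differences are log2 changes of scaled FPKM plus 1, from 1 limma fit of all 12 libraries, and a gene was called at a Benjamini-Hochberg adjusted p under 0.05 over all 9842 genes. Such changes understate those of genes at low levels. The labels do not say that replicates came from separate animals, so p-values measure the spread between these libraries only. On the deposited, unscaled FPKM the median of all genes itself moved, by 0.06 in eMZB_KO against eMZB_WT, 0.52 in TrB_KO against TrB_WT, 0.23 in eMZB_KO against TrB_KO and 0.67 in eMZB_WT against TrB_WT. After scaling it lay within 0.01 of 0 in each of these.

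With LSD1 loss 1 of 9 members was called in each cell type, Btg2, and it was lower in both. In eMZB_KO against eMZB_WT 0.406% of all genes were called, and 0.0711% were called lower. In TrB_KO against TrB_WT 0.498% were called, and 0.112% were called lower. The median change of the 9 members was -0.19 in eMZB and 0.14 in TrB, where that of all genes lay within 0.01 of 0. Between the cell types, where 27.4% of all genes were called in either genotype, the calls were wider. In eMZB_KO against TrB_KO 5 members were lower (Btg1, Btg2, Klf2, Ccng2 and Ccnd3) and 0 higher, where 13.2% of all genes were called lower and 14.2% higher. With the replicate number as a block (same-numbered libraries deviated together here), 6 members were lower, Cdkn1b added (adjusted p = 0.0414). In eMZB_WT against TrB_WT 4 members were lower (Btg2, Klf2, Ccnd2 and Ccnd3) and 1 was higher (Ccng1), where 12.7% of all genes were called lower and 14.6% higher. In such bulk samples fewer cells of a type and less RNA per cell cannot be told apart. The median member change was -0.62 in the knockout comparison and -0.35 in the wild-type comparison. On deposited FPKM 0 members were called in eMZB_KO against TrB_KO, and in eMZB_WT against TrB_WT the 2 called ones were Ccng1 and Tob1, both higher.

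**Figure D1:**
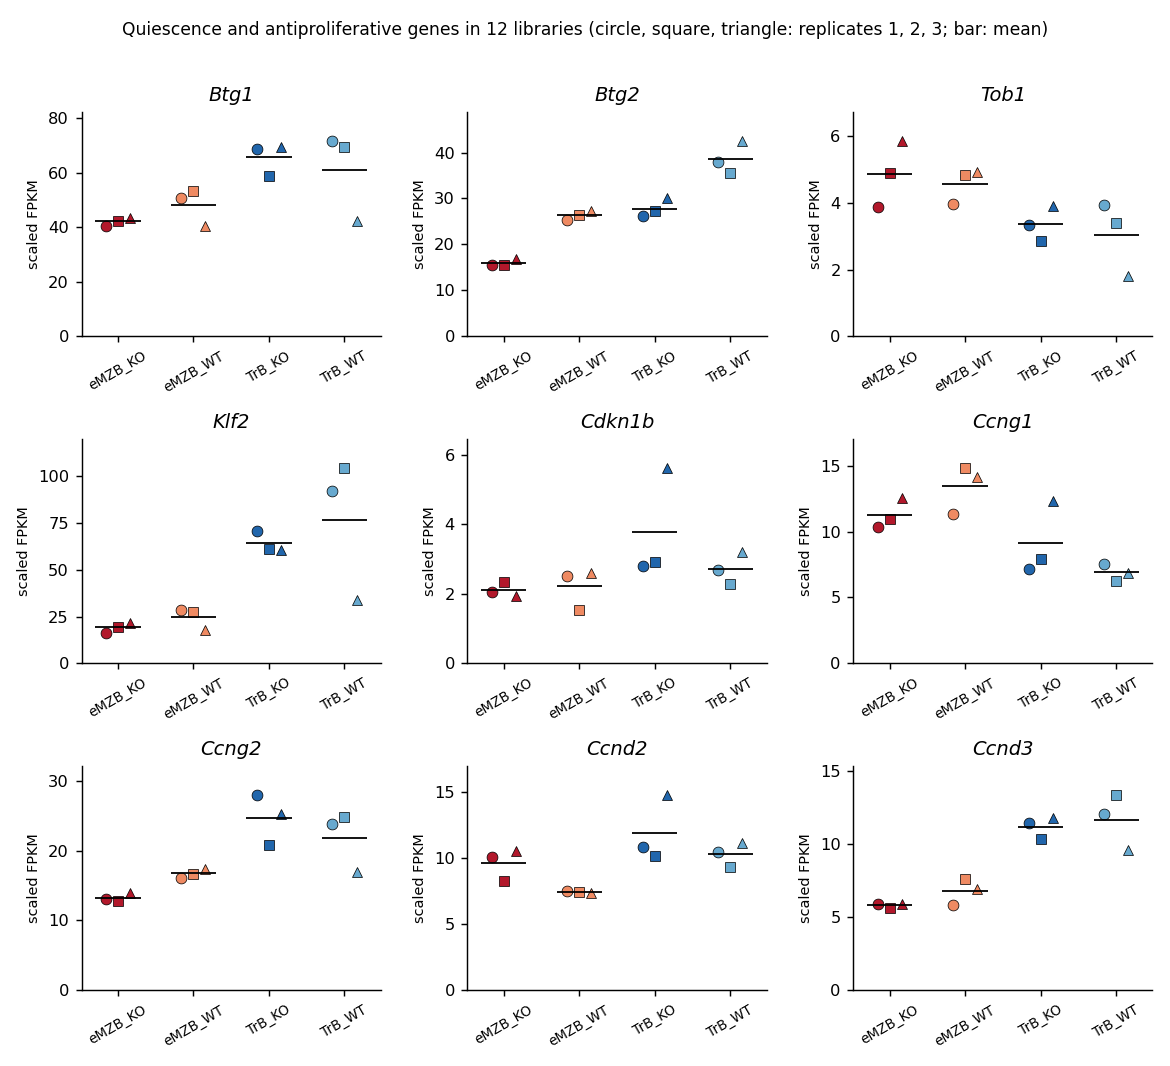
Scaled FPKM (y axis) of the 9 listed members in the 12 libraries, by group (x axis), with a symbol for each replicate number and a bar at the group mean. Btg2 in eMZB_KO (15.5 to 16.9) lies below every other group, and Klf2 spans 33.9 to 105 within TrB_WT.

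Promoters are shown for 2 pairs of relatives. Btg2 was called lower with LSD1 loss and Btg1 was not called, but the difference between their changes was not tested. Ccng1 and Ccng2 form the other pair, whose ratio was higher in eMZB than in TrB, also without a test. Each line gives the 250 bases before the start site in RefSeq (GRCm38.p6), 5′ to 3′ on the strand of the gene. Capitals mark the searched motifs on either strand: the cyclic AMP response element TGACGTCA, the CCAAT box CCAAT, the GC box GGGCGG, the FOXO core GTAAACA and the TATA box TATAAA. Bases on the other strand appear as reverse complements, such as ATTGG and CCGCCC, and neighbouring GC boxes can share bases.
Btg2: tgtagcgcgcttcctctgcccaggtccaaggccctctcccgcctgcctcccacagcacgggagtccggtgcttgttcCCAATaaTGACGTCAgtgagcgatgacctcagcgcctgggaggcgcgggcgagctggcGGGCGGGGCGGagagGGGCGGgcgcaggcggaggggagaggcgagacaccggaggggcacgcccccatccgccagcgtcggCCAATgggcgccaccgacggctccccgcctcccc
Btg1: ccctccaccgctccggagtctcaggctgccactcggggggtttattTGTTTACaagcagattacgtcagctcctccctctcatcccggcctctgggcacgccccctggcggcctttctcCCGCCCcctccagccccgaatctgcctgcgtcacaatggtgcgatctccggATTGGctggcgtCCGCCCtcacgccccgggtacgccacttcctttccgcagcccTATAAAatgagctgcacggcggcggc
Ccng1: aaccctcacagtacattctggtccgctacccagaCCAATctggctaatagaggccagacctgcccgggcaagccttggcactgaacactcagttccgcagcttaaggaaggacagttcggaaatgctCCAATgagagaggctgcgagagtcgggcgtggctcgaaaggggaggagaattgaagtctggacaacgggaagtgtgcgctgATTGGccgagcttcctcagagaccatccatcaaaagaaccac
Ccng2: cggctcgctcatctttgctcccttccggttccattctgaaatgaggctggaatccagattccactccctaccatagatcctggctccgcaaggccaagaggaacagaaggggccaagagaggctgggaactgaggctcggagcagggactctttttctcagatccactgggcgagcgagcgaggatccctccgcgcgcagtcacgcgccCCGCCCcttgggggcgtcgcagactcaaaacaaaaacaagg
The windows are chr1:134079156-134079405 (minus strand) for Btg2, chr10:96616751-96617000 (plus) for Btg1, chr11:40755287-40755536 (minus) for Ccng1 and chr5:93267323-93267572 (plus) for Ccng2. The Btg2 window holds 1 full cyclic AMP response element at -166, CCAAT boxes at -173 and -34 and 3 GC boxes, of which those at -115 and -110 share bases. The Btg1 window holds a FOXO core at -204, a CCAAT box at -80, GC boxes at -131 and -68 and a TATA box at -26. The Ccng1 window holds 3 CCAAT boxes and no GC box, and the Ccng2 window 1 GC box at -41 and no CCAAT box. Among the 32851 promoter windows of the same length, 1.55% hold the response element, 33.8% a CCAAT box, 32.7% a GC box, 3.17% the FOXO core and 12.4% the TATA box. Among the 9850 windows of listed genes the shares are 2.67%, 36.4%, 56.9%, 2.15% and 6.87% in the same order. The members have 11 windows, with both starts of Cdkn1a and of Ccnd3 and without Ccnd2. Of these, 1 holds the response element, 6 a CCAAT box, 9 a GC box, 2 the FOXO core (Btg1 and a start of Ccnd3) and 2 the TATA box (Btg1 and Tob1). The E-box CACGTG was in 0 of the 11, in 6.02% of all windows and in 8.65% of those of listed genes. These are matches of letters and describe the windows only.

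Btg2 (Entrez 12227, chr1:134074865-134079155), an antiproliferative adaptor and a known p53 target, was the member that followed genotype in both cell types. It had 15.6, 15.5 and 16.9 scaled FPKM in eMZB_KO, against 25.3, 26.4 and 27.2 in eMZB_WT. All 3 knockout libraries lay below all 3 wild-type libraries, as for 9.29% of all genes in this direction. The 2 sets of values lay further apart than the spread within either. In limma it changed by -0.69 on the log2 scale (SE 0.09, adjusted p = 0.00326), and it stayed called when any 1 of the 12 libraries was left out. It had the same sign on deposited FPKM, -0.62, but was not called there.

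In transitional cells Btg2 had 26.1, 27.2 and 30.02 scaled FPKM in TrB_KO, against 38.0, 35.5 and 42.5 in TrB_WT, the last from the library labelled TrB_WT replicate 3. The groups did not overlap, as for 4.37% of all genes in this direction. In limma it changed by -0.46 on the log2 scale (SE 0.09, adjusted p = 0.0398). This call was the less secure: it was kept without TrB_KO replicate 3 (adjusted p = 0.0288) and without TrB_WT replicate 2 (adjusted p = 0.0402), and lost in the other 10 fits that left out 1 library (adjusted p of 0.0600 to 0.119). Its adjusted p was 0.0853 with voom on recovered reads and 0.0621 with TMM factors. On deposited FPKM the sign flipped, to 0.16, where all genes had a median of 0.52. Between the cell types Btg2 was lower in eMZB in both genotypes, with a log2 change of -0.76 (SE 0.09, adjusted p = 4.2e-05) in eMZB_KO against TrB_KO. In eMZB_WT against TrB_WT it was -0.53 (SE 0.09, adjusted p = 0.000647), and the sign of this value flipped on deposited FPKM, to 0.31. Its means were 15.97 ± 0.77 in eMZB_KO, 26.3 ± 0.962 in eMZB_WT, 27.8 ± 2.03 in TrB_KO and 38.7 ± 3.54 in TrB_WT (SD, n = 3 each). Of neighbours in this order, eMZB_WT and TrB_KO overlapped and the others did not.

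Btg1 (Entrez 12226, chr10:96617001-96622813), the close relative of Btg2, had a mean of 54.2 scaled FPKM over all libraries, above 97.4% of the listed genes and the highest such mean of the members, while in TrB_WT Klf2 averaged 76.9 and Btg1 61.0. It had 40.6, 42.4 and 43.5 scaled FPKM in eMZB_KO, against 50.6, 53.1 and 40.3 in eMZB_WT, where the last value is from the library labelled eMZB_WT replicate 3. It had 68.8, 58.9 and 69.3 in TrB_KO, against 71.6, 69.2 and 42.1 in TrB_WT, again with the low value in the library labelled replicate 3. Knockout and wild-type libraries overlapped in both cell types, and the changes were -0.17 (95% interval -0.55 to 0.20) in eMZB and 0.14 (-0.23 to 0.51) in TrB. Btg1 was lower in eMZB_KO than in TrB_KO, with a change of -0.62 (SE 0.17, adjusted p = 0.0168), a call lost without eMZB_KO replicate 1 (adjusted p = 0.0573). In eMZB_WT against TrB_WT its change was -0.31 (SE 0.17, adjusted p = 0.198), and -0.56 (adjusted p = 0.00435) without the library labelled TrB_WT replicate 3. The ratio of Btg2 to Btg1 within a library does not depend on scaling. It was 0.383, 0.365 and 0.387 in eMZB_KO, against 0.501, 0.497 and 0.676 in eMZB_WT, and 0.379, 0.461 and 0.433 in TrB_KO, against 0.530, 0.513 and 1.01 in TrB_WT. The ratio was lower in every knockout library than in every wild-type library of its cell type, with the highest value in the library labelled TrB_WT replicate 3. An exact permutation test of 3 libraries against 3 cannot give a two-sided p below 0.10, so the ratios are given without a test.

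Tob1 (Entrez 22057, chr11:94209842-94215495), a family member with a longer tail that also binds the deadenylase, was low and was called in 0 of these comparisons on scaled FPKM. It had 3.87, 4.89 and 5.86 scaled FPKM in eMZB_KO, 3.97, 4.83 and 4.92 in eMZB_WT, 3.35, 2.87 and 3.92 in TrB_KO and 3.94, 3.41 and 1.82 in TrB_WT. Its values rested on 30 to 287 reads a library. Its means were higher in eMZB than in TrB, by 0.42 (95% interval -0.01 to 0.84, adjusted p = 0.142) in the knockout and 0.49 (0.07 to 0.92, adjusted p = 0.0796) in the wild type. The knockout value was called without the library labelled TrB_WT replicate 3 (0.42, adjusted p = 0.0427), and the wild-type value without TrB_WT replicate 1 (0.66, adjusted p = 0.037). The difference between the eMZB and TrB responses of Tob1 to LSD1 loss was -0.08 (-0.68 to 0.52).

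**Figure D2:**
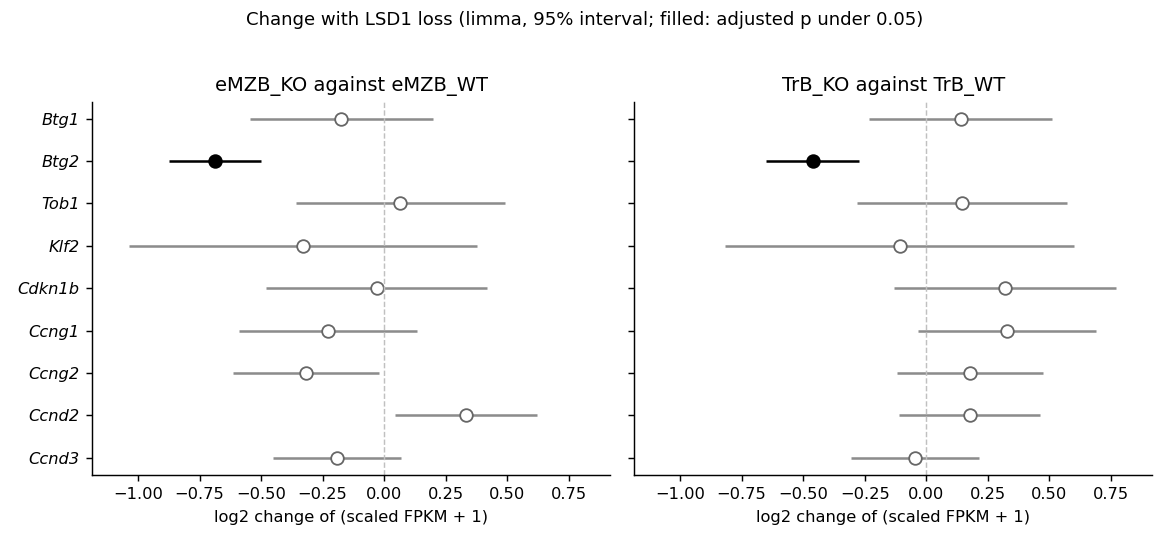
Log2 change of scaled FPKM plus 1 with LSD1 loss (x axis) for the 9 listed members (y axis), in eMZB (left) and TrB (right), with 95% intervals and filled points where adjusted p was under 0.05. Btg2 is the filled point in both panels, at -0.69 and -0.46; on deposited FPKM the TrB values of Btg2, Klf2 and Ccnd3 and the eMZB value of Cdkn1b had the opposite sign.

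Klf2 (Entrez 16598, chr8:72319062-72321654), the quiescence and homing factor, showed the largest change of the 9 members between the cell types. It had 16.3, 19.6 and 21.6 scaled FPKM in eMZB_KO, against 70.6, 61.1 and 60.7 in TrB_KO. It had 28.3, 27.7 and 17.9 in eMZB_WT, against 92.3, 105 and 33.9 in TrB_WT, where the last value of each group is that of the library labelled replicate 3. The eMZB_KO libraries lay below the TrB_KO libraries, as for 21.2% of all genes. Its log2 change reached -1.70 (SE 0.33, adjusted p = 0.00213) for the knockout and -1.48 (SE 0.33, adjusted p = 0.00517) for the wild type, or 0.308 and 0.359 of the TrB level on this scale. It was called in each fit that left out 1 library, and neither genotype was called on deposited FPKM, where the changes were -1.40 and -0.63. With LSD1 loss Klf2 was not called. Its changes were -0.33 (95% interval -1.04 to 0.38) in eMZB and -0.11 (-0.82 to 0.60) in TrB, and the TrB value was -0.61 without the library labelled TrB_WT replicate 3, still not called (adjusted p = 0.163).

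Cdkn1b (Entrez 12576, chr6:134920401-134925525), which encodes the CDK inhibitor p27, had the lowest mean of the listed members over all libraries, 2.71 scaled FPKM, while in TrB_KO it averaged 3.78 and Tob1 3.38. It had 2.05, 2.35 and 1.93 in eMZB_KO, 2.51, 1.54 and 2.59 in eMZB_WT, 2.80, 2.93 and 5.63 in TrB_KO and 2.69, 2.29 and 3.20 in TrB_WT. The 5.63 belongs to TrB_KO replicate 3, the library that stood apart in its read share, and the other TrB libraries lay between 2.29 and 3.20. Each eMZB_KO library lay below each TrB_KO library, as for 21.2% of all genes, with a change of -0.57 (SE 0.21, adjusted p = 0.0576), which was -0.30 (adjusted p = 0.189) without TrB_KO replicate 3. In that comparison, the fit with the replicate number as a block called it (adjusted p = 0.0414), as did voom (-0.93, adjusted p = 0.0116). So did the fits without TrB_KO replicate 1 (adjusted p = 0.0332), TrB_KO replicate 2 (0.0483) and eMZB_WT replicate 2 (0.0489). With LSD1 loss its changes were -0.03 (95% interval -0.48 to 0.42) in eMZB and 0.32 (-0.13 to 0.77) in TrB. p27 is largely set by protein turnover, which RNA does not measure.

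The atypical cyclins G split between the cell types. Ccng1 (Entrez 12450, chr11:40748552-40755309) is a p53 target, and Ccng2 (Entrez 12452, chr5:93267573-93276231) is a FOXO target that is high in resting cells. Ccng1 had 11.3, 14.8 and 14.1 scaled FPKM in eMZB_WT, against 7.56, 6.27 and 6.88 in TrB_WT. The groups did not overlap, as for 21.8% of all genes in this direction, and the change was 0.86 (SE 0.17, adjusted p = 0.0023, limma), also called on deposited FPKM (1.62, adjusted p = 0.00975). Ccng1 had 10.3, 11.0 and 12.6 in eMZB_KO, against 7.15, 7.93 and 12.3 in TrB_KO. The 12.3 of TrB_KO replicate 3 overlapped the eMZB_KO values. The change was 0.31 (SE 0.17, adjusted p = 0.205), and 0.53 (adjusted p = 0.00931) without that library.

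Ccng2 had 13.0, 12.8 and 14.0 scaled FPKM in eMZB_KO, against 28.0, 20.8 and 25.3 in TrB_KO. The groups lay apart, as for 21.2% of all genes in this direction, with a change of -0.84 (SE 0.14, adjusted p = 0.000694). It had 16.1, 16.7 and 17.4 in eMZB_WT, against 23.8, 24.9 and 16.9 in TrB_WT, the last from the library labelled replicate 3, which overlapped the eMZB_WT values. The change was -0.35 (SE 0.14, adjusted p = 0.0772), and -0.52 (adjusted p = 0.00505) without that library; on deposited FPKM the sign flipped, to 0.48. With LSD1 loss in eMZB, Ccng2 was lower in every knockout library than in every wild-type library, with a change of -0.32 (95% interval -0.61 to -0.02) that did not pass (adjusted p = 0.879), where the libraries of 9.29% of all genes lay apart in that direction. The ratio of Ccng1 to Ccng2 ran from 0.793 to 0.896 in eMZB_KO against 0.255 to 0.487 in TrB_KO, and from 0.700 to 0.887 in eMZB_WT against 0.252 to 0.406 in TrB_WT. In every library of both genotypes the ratio was higher in eMZB than in any TrB library.

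**Figure D3:**
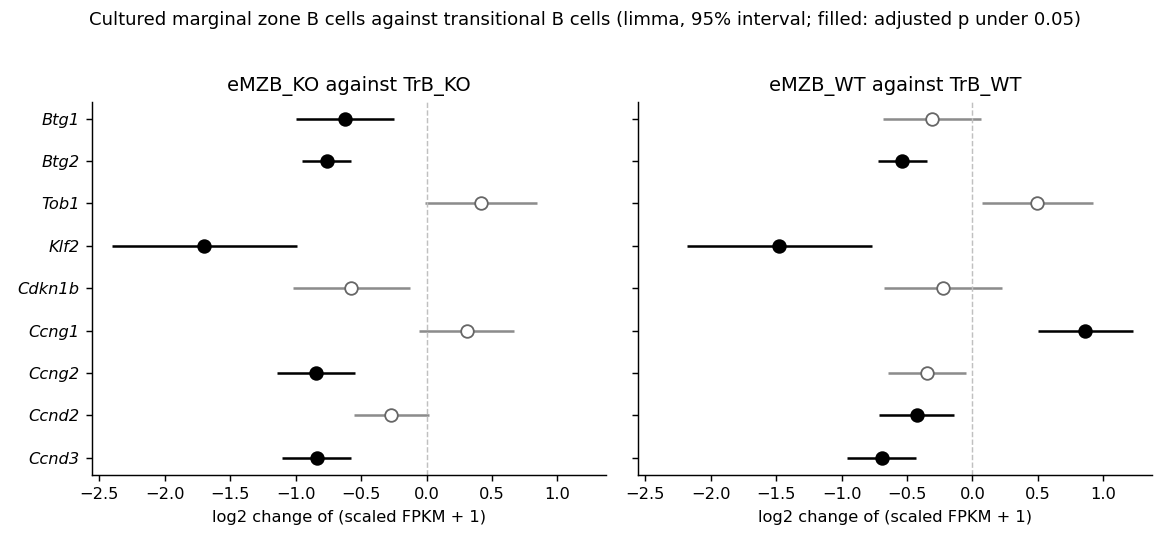
Log2 change of scaled FPKM plus 1 between eMZB and TrB (x axis) for the 9 listed members (y axis), in the knockout (left) and the wild type (right), with 95% intervals and filled points where adjusted p was under 0.05. Klf2 is at -1.70 and -1.48 and Ccng1 at 0.31 and 0.86; on deposited FPKM the wild-type values of Btg1, Btg2, Cdkn1b, Ccng2, Ccnd2 and Ccnd3 had the opposite sign.

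The D-type cyclins drive CDK4 and CDK6 in early G1, and on scaled FPKM both had lower means in eMZB than in TrB in each genotype. Ccnd3 (Entrez 12445, chr17:47505051-47599689), the main D-type cyclin of early B cell development, had 5.88, 5.63 and 5.93 scaled FPKM in eMZB_KO, against 11.4, 10.4 and 11.8 in TrB_KO. It had 5.86, 7.63 and 6.94 in eMZB_WT, against 12.04, 13.4 and 9.61 in TrB_WT. All eMZB_KO libraries lay below all TrB_KO libraries, as for 21.2% of all genes. The changes were -0.84 (SE 0.12, adjusted p = 0.000275) in the knockout and -0.69 (SE 0.12, adjusted p = 0.0011) in the wild type, with the wild-type sign flipped on deposited FPKM, to 0.08. With LSD1 loss its changes were -0.19 (95% interval -0.45 to 0.07) in eMZB and -0.05 (-0.31 to 0.22) in TrB.

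Ccnd2 (Entrez 12444, chr6:127125162-127152188), the D-type cyclin that mature B cells induce on stimulation, had 10.1, 8.21 and 10.5 scaled FPKM in eMZB_KO, against 7.49, 7.38 and 7.32 in eMZB_WT. Every knockout library lay above the wild-type libraries, which is the case for 9.13% of all genes, and the change of 0.33 (95% interval 0.04 to 0.62) did not pass (adjusted p = 0.805, limma). It had 10.8, 10.1 and 14.8 in TrB_KO, against 10.4, 9.32 and 11.1 in TrB_WT, with a change of 0.18 (-0.11 to 0.46). In eMZB_WT against TrB_WT it was lower, with a change of -0.43 (SE 0.13, adjusted p = 0.0308). That call was kept in 7 of 12 fits that left out 1 library and was lost without TrB_WT replicate 1, without the library labelled TrB_WT replicate 3 and without each eMZB_WT library (adjusted p = 0.0718 to 0.0802), and its sign flipped on deposited FPKM, to 0.35. In eMZB_KO against TrB_KO the change was -0.27 (SE 0.13, adjusted p = 0.158). The ratio of Ccnd2 to Ccnd3 was 1.72, 1.46 and 1.78 in eMZB_KO, against 1.28, 0.967 and 1.05 in eMZB_WT, and 0.945, 0.976 and 1.25 in TrB_KO, against 0.867, 0.696 and 1.16 in TrB_WT. It was higher in the 3 eMZB_KO libraries than in the other 9.

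**Figure D4:**
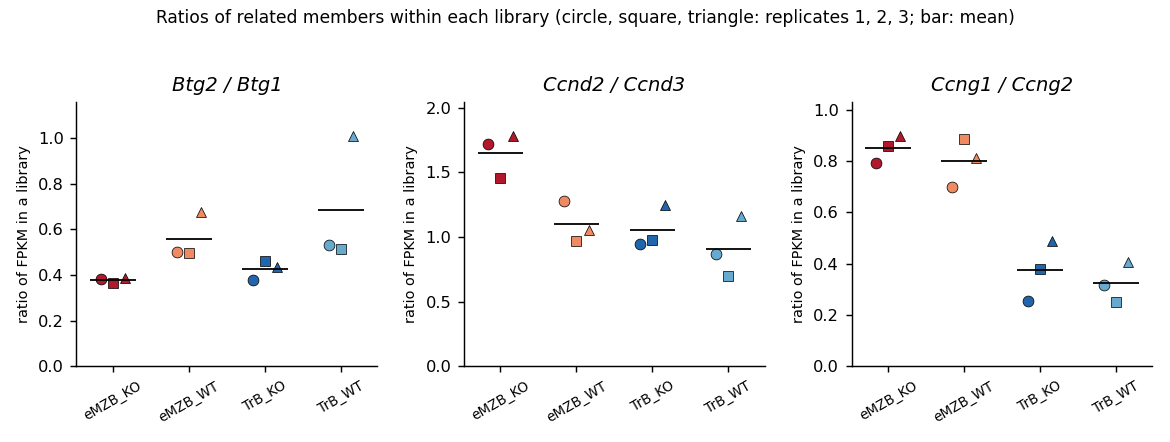
Ratio of FPKM of Btg2 to Btg1, Ccnd2 to Ccnd3 and Ccng1 to Ccng2 (y axes) in each library, by group (x axis), with a symbol for each replicate number and a bar at the group mean; these ratios do not depend on scaling. Ccnd2 to Ccnd3 is 1.46 to 1.78 in eMZB_KO, and Ccng1 to Ccng2 is 0.700 to 0.896 in eMZB against 0.252 to 0.487 in TrB.

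The responses of the members to LSD1 loss were not shown to differ between the cell types. In the interaction, the eMZB response minus the TrB response, 0 of 9 members were called by limma and 0 by voom. Limma called 0.0102% of all genes there. An unadjusted p under 0.05 in limma was reached by 674 of all 9842 genes and by 2 of the 9 members. The 2 members were Ccng1 at -0.56 (95% interval -1.07 to -0.04) and Ccng2 at -0.49 (-0.91 to -0.07), both with adjusted p = 0.686. For Btg2 the difference was -0.23 (-0.49 to 0.04, adjusted p = 0.791).

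Single libraries set the extremes of several members at once. Among the 6 TrB libraries, the library labelled TrB_WT replicate 3 was the lowest for Btg1, Tob1, Klf2, Ccng2 and Ccnd3 and the highest for Btg2. TrB_WT replicate 2 was the lowest for Cdkn1b, Ccng1 and Ccnd2 and the highest for Klf2 and Ccnd3, and TrB_KO replicate 3 the highest for Cdkn1b, Ccng1 and Ccnd2. The summed level of 14 listed immediate early genes was 208, 192 and 240 in TrB_KO, against 232, 241 and, in the library labelled replicate 3, 161 in TrB_WT. The part of that difference in the members' values was not tested.

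Other genes of the pathways were taken from lists drawn around the members, 13 lists with 136 tested genes. Of these, LSD1 loss in eMZB called 2 (Btg2 and Itgb7) by limma, 3 by voom, with 11 at an unadjusted p under 0.05. These are 1.47% called and 8.09% at that p, where all genes had 0.406% and 5.39%. In TrB it called 5 by limma and 2 by voom, with 16 at an unadjusted p under 0.05. These are 3.68% and 11.8%, where all genes had 0.498% and 9.91%. Among the 5 were Btg2, Itgb7, Mcm6 and Myc. Itgb7, an integrin chain for gut homing, was higher in both cell types, by 0.92 (SE 0.11, adjusted p = 0.00317) in eMZB and 1.12 (SE 0.11, adjusted p = 0.000368) in TrB, and was not called on deposited FPKM (adjusted p = 0.999983 and 0.133). Myc, a driver of growth, had 8.72 ± 0.548 in TrB_KO and 5.72 ± 0.514 in TrB_WT, a change of 0.53 (SE 0.10, adjusted p = 0.039). The Myc call was kept without TrB_WT replicate 2 and without eMZB_KO replicate 3, and lost in the other 10 fits that left out 1 library (adjusted p up to 0.142), with voom (adjusted p = 0.169) and on deposited FPKM (adjusted p = 0.352). Mcm6 was likewise called in 2 of these 12 fits, without TrB_KO replicate 2 and without the library labelled TrB_WT replicate 3.

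Between the cell types the lists differed in their counts, to be read beside 14.2% of all genes called higher and 13.2% lower in eMZB_KO against TrB_KO, and 14.6% higher and 12.7% lower in eMZB_WT against TrB_WT. Of 25 proliferation markers, 24 were higher and 0 lower in eMZB_KO than in TrB_KO, and 23 higher and 0 lower in eMZB_WT than in TrB_WT, with median changes of 0.74 and 0.77. Without both wild-type libraries of low Kdm1a the wild-type count was 18, and on deposited FPKM the counts were 9 and 24. Ccna2, the S phase cyclin, had 8.48 ± 1.04 in eMZB_KO and 2.48 ± 0.48 in TrB_KO, and 8.26 ± 1.18 in eMZB_WT and 1.93 ± 0.761 in TrB_WT. Rrm2, a subunit of the enzyme that makes deoxyribonucleotides, had 15.4 ± 0.433 in eMZB_KO and 5.42 ± 0.702 in TrB_KO.

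Of 8 Krüppel-like factor genes tested, Klf2 among them, 3 were lower in the knockout comparison and 6 in the wild-type one, and 0 were higher; as deposited 1 was lower in each. That is 37.5% and 75% of the list, where 13.2% and 12.7% of all genes were lower. The knockout count was 5 without the library labelled TrB_WT replicate 3, 2 without TrB_KO replicate 3 and 7 with voom. Klf11, a factor of the family that TGF-beta induces, had 0.419 ± 0.115 scaled FPKM in eMZB_KO and 3.25 ± 0.966 in TrB_KO, a change of -1.56 (SE 0.18, adjusted p = 4.8e-05). Klf7 was also lower, at -0.53 in the knockout and -0.73 in the wild type. Of 5 homing genes linked to KLF2 in other work, 2 were higher in eMZB_KO and 3 in eMZB_WT, against 0 and 3 as deposited, and 0 were lower; the shares of 40% and 60% rest on 5 genes, where 14.2% and 14.6% of all genes were higher. S1pr1, the receptor for egress from tissue, had 58.1 ± 2.43 in eMZB_KO and 56.4 ± 5.76 in TrB_KO and was not called.

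Of 15 genes around FOXO and PI3K signalling, 8 were lower and 2 higher in eMZB_KO than in TrB_KO, and 5 lower and 2 higher in eMZB_WT than in TrB_WT; as deposited 0 were lower, with 0 and 1 higher. The lower genes are 53.3% and 33.3% of the list, where 13.2% and 12.7% of all genes were lower. Without the library labelled TrB_WT replicate 3 the wild-type count of higher genes was 0. Txnip, a FOXO-responsive brake on glucose uptake, had 34.5 ± 1.004 in eMZB_KO and 73.0 ± 6.75 in TrB_KO, a change of -1.06 (SE 0.10, adjusted p = 9.3e-06). Trib2 and Foxp1 were lower in both genotypes too, Trib2 at -1.50 in the knockout and -1.35 in the wild type. Of 14 p53 target genes, 7 were higher and 2 lower in the knockout comparison, and 6 higher and 1 lower in the wild-type one; as deposited 4 and 8 were higher and 0 lower. The higher genes are 50% and 42.9% of the list, where 14.2% and 14.6% of all genes were higher. Sesn2, a stress-induced regulator of nutrient sensing, had 6.06 ± 0.465 in eMZB_KO and 0.214 ± 0.193 in TrB_KO, and Ddit4, an inhibitor of mTORC1, 4.38 ± 0.0969 and 0.972 ± 0.309. Ccng1 is a member of that list.

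The direct partners of the members gave mixed counts. Of 3 listed CDK inhibitor genes, Cdkn2d (p19) was lower and Cdkn2c (p18) higher in eMZB in both genotypes, Cdkn2d at -1.13 (SE 0.14) in the knockout and -1.11 (SE 0.14) in the wild type, and Cdkn2c at 0.74 and 0.79. The products of Cdkn2d and Cdkn2c are both known to block CDK4 and CDK6, the partners of the D-type cyclins, and these genes changed in opposite directions here. Cdk4 itself had 47.8 ± 1.46 in eMZB_KO and 27.1 ± 1.47 in TrB_KO, and 43.9 ± 0.399 in eMZB_WT and 26.4 ± 2.17 in TrB_WT. Among 16 RB and E2F genes 3 were higher and 2 lower in the knockout and 3 higher and 3 lower in the wild type. These calls are 31.2% and 37.5% of the list, near the 27.4% of all genes called in either genotype. E2f2, an activator E2F, was lower, at -1.42 (SE 0.12) in the knockout and -1.40 (SE 0.12) in the wild type, and the E2F dimer partner Tfdp1 higher, at 1.36 and 1.30. Of 7 genes of p27 turnover, 2 were higher in both genotypes, Cks1b and Cul1, and 1 was lower in the knockout, Rnf123, a total of 42.9% and 28.6% of the list where 27.4% of all genes were called. Cks1b, the cofactor that presents p27 to the SKP2 ligase, had 15.2 ± 0.788 in eMZB_KO and 4.62 ± 1.35 in TrB_KO. Among 13 CCR4-NOT genes, the deadenylase that BTG and TOB proteins recruit, 2 were higher and 0 lower in the knockout and 2 higher and 1 lower in the wild type, 15.4% and 23.1% of the list and below the 27.4% of all genes. Of the BTG and TOB family outside the members, Btg3 was higher in eMZB by 0.78 (SE 0.20, adjusted p = 0.01) in the knockout and 0.61 (SE 0.20, adjusted p = 0.035) in the wild type. Btg3 was low, at 0.886 ± 0.357 scaled FPKM and 9 to 28 reads a library in TrB_WT. Tob2 was called higher in the wild type, by 0.36 (SE 0.12, adjusted p = 0.0351). In that comparison 0 family genes were called higher without the library labelled TrB_WT replicate 3. On deposited FPKM 0 genes of these partner lists were called lower in either genotype.

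**Figure D5:**
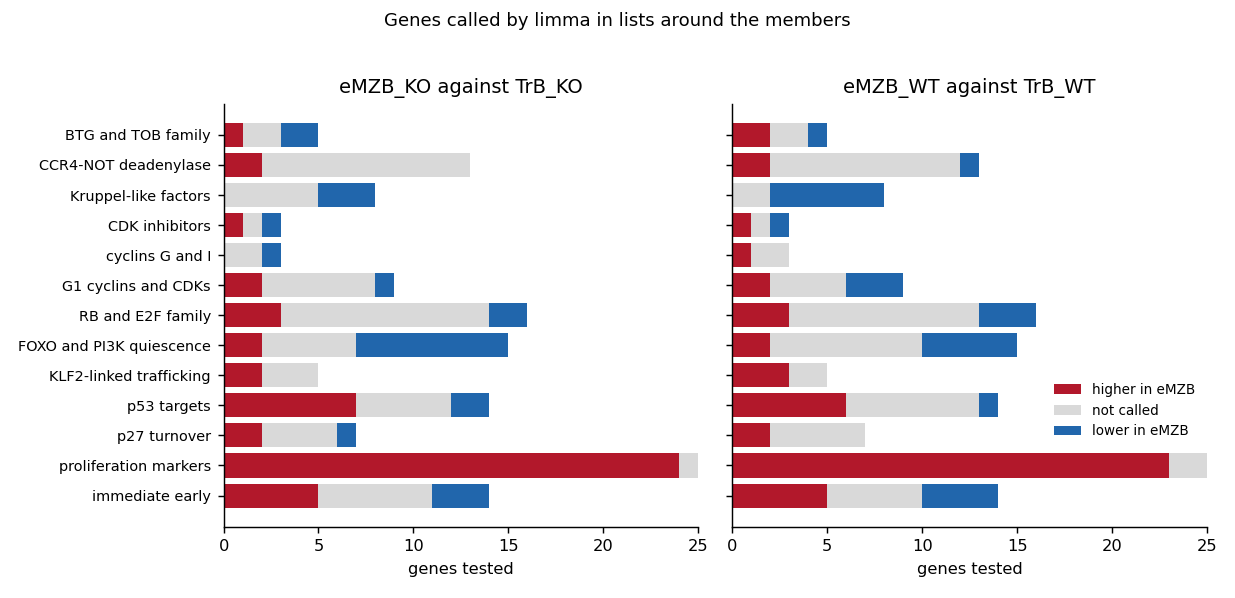
Number of genes tested (x axis) in each of 13 lists (y axis), split into those limma called higher in eMZB, not called and called lower in eMZB, for the knockout (left) and the wild type (right), on scaled FPKM. Proliferation markers are called higher in 24 and 23 of 25 genes, and Krüppel-like factors are called lower in 3 and 6 of 8; on deposited FPKM those counts were 9, 24, 1 and 1.

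The genes with the pattern nearest to a called member were found from the root mean square difference of log2 values over the 12 libraries, each gene centred on its mean. For Btg2 they were Hvcn1 (0.20), Mapk3 (0.20) and Zfp296 (0.20), where the median over all genes was 0.49. Mapk3, the gene of the kinase ERK1, had 4.93 ± 0.762 scaled FPKM in eMZB_KO, 7.07 ± 0.773 in eMZB_WT, 7.16 ± 0.396 in TrB_KO and 9.33 ± 1.03 in TrB_WT. Its order of groups was that of Btg2, to which it was matched over these same libraries, so the shared order is no separate result. For Klf2 the nearest were Cerk (0.30), Tmem163 (0.33) and Gramd4 (0.33). For Ccng1 they were Aldh4a1 (0.10), Anxa4 (0.14) and Nsmf (0.14), and for Ccnd3 Txndc11 (0.11), Adora2a (0.11) and Cmtm7 (0.12). For Btg1 they were Gnai2, Frat2 and Limd2, for Ccng2 Cbx7, Frat2 and Ypel3, and for Ccnd2 Tcof1, Tagln2 and Ap3s2. Frat2 stood near both Btg1 and Ccng2. Some of the nearest genes were low. Frat2 averaged 0.994 scaled FPKM in eMZB_KO to 2.18 in TrB_KO, and Adora2a 0.633 in eMZB_KO to 1.75 in TrB_KO. Their values rested on as few as 15 and 17 reads a library, and the pseudocount of 1 understates changes at such levels. Among the members Btg1 and Ccng2 were the most alike pair, at 0.15, followed by Ccng2 and Ccnd3, also at 0.15.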

How the data were processed

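The values are FPKM of 9842 genes in 1 table deposited by the authors. STAR and the mm10 build are named in the submitters' processing notes; which versions, counting program and annotation were used is not given here. Per the labels' protocols, SMART-Seq v4 and Nextera XT kits were used, which do not mark strand. Whole reads were recovered from the FPKM for all 9842 genes, within 0.02 reads, for depth and for voom; since reads amplified by PCR carry no molecular identifiers, read numbers cover counting error only. Replicate pairs differed by 2.55 to 18.6 times counting noise, so 0 were duplicates.

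FPKM was divided by median-of-ratios factors (0.613 to 2.14), and log2 values with a pseudocount of 1 were fitted with limma 3.58.1 (R 4.3.3; 4 group means, 8 residual degrees of freedom, eBayes with trend, Benjamini-Hochberg over all genes). The fit was also run on simulated data, drawn from the eMZB_WT means with the same added spread for every gene. The real libraries differ from that setting, so the simulation does not measure the errors of the fit here. Python 3.11.15 served for tables and figures. Gene symbols and positions were matched by Entrez ID to RefSeq. The members, lists, scaling and named-gene rule were chosen with earlier results of these data known. All members are named. Of each list counts are given, with some of the called genes of smallest adjusted p, at most 4 per comparison; S1pr1, outside this rule, was chosen after its values were seen. For each called member the 3 genes of nearest pattern are named.

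Replicate numbers come from the titles, which give no meaning for them. Deviations from group means of same-numbered libraries correlated at 0.161, 0.106 and 0.292 between eMZB_KO and TrB_KO, all over 0.1. The other comparisons had a correlation below that. Pairing was therefore tried as an alternative and not used in the main fit. The replicate block gave each replicate number an effect shared by all 4 groups. With a block within genotype, limma also called Cdkn1b in eMZB_KO against TrB_KO (adjusted p = 0.0438). Printed values come from the fit without a block, and the blocked value stands beside a result whose call it changes. Alternatives were deposited FPKM, TMM factors, a pseudocount of 0.1, a mean of at least 5 FPKM, the groups of the contrast only, voom, replicate blocks and left-out libraries.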

Additional observations from a re-analysis of the deposited data

How the results depend on the processing

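On FPKM as deposited 0 members were called in eMZB_KO against eMZB_WT, 0 in TrB_KO against TrB_WT, 0 in eMZB_KO against TrB_KO and 2 in eMZB_WT against TrB_WT; the cause was not tested. The TrB count of 1 was also 0 with TMM factors, with the groups of the contrast only, with voom and without both wild-type libraries of low Kdm1a, and 0 to 1 with 1 library left out. With the replicate block 6 members were called in eMZB_KO against TrB_KO, Cdkn1b being the added one; the block changed no other member call.

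Deposited FPKM turned the sign of Btg2 (0.16), Klf2 (0.51) and Ccnd3 (0.54) in TrB with LSD1 loss, of Cdkn1b (0.011) in eMZB, and of Ccnd2 (-0.36) in the interaction. In eMZB_WT against TrB_WT it turned Btg1 (0.54), Btg2 (0.31), Cdkn1b (0.39), Ccng2 (0.48), Ccnd2 (0.35) and Ccnd3 (0.085). Leaving out both wild-type libraries of low Kdm1a turned Btg1 (-0.11) and Tob1 (-0.10) in TrB, Cdkn1b (0.059) in eMZB, and Tob1 (0.21) and Klf2 (0.082) in the interaction. With 1 library left out, uncalled values ranged across 0: in TrB Btg1 from -0.10 to 0.27, Tob1 from -0.10 to 0.31, Klf2 from -0.61 to 0.19 and Ccnd3 from -0.17 to 0.050; in eMZB Tob1 from -0.053 to 0.19 and Cdkn1b from -0.19 to 0.057; in the interaction Tob1 from -0.25 to 0.17 and Klf2 from -0.52 to 0.28. The cause was not tested.

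All-gene counts moved by over 1.5 times in TrB (49 to 19 as deposited, 17 over 5 FPKM, 9 with the groups of the contrast only, 21 with voom), in eMZB (40 to 15, 23 and 65 under the first 3 of these, 23 without both low-Kdm1a libraries), in eMZB_WT against TrB_WT (2693 to 1758 over 5 FPKM), in eMZB_KO against TrB_KO (2695 to 460 as deposited) and in the interaction (1 to 15 as deposited, 0 over 5 FPKM). With 1 library left out they were 15 to 52 in eMZB, 28 to 54 in TrB and 1 to 5 in the interaction. Depth limits Tob1 and Cdkn1b most, at 30 to 753 reads a library.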
